A study of Rattus norvegicus with 8 samples.

Results

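Fatty acid oxidation was followed through 8 genes: the nuclear receptor gene Ppara and the enzyme genes Acsl1, Cpt1a, Cpt2, Acadm, Hadha, Acaa2 and Ehhadh. They were taken as every probe set whose gene symbol in the platform annotation is, or includes, one of these names, which gave 10 of the 15866 probe sets for rat transcripts on the array. Acsl1 and Cpt1a have 2 probe sets each and the other genes 1 each. The cells were hepatocytes, the main cell type of liver, isolated from rats, plated and left overnight before treatment. Cultures from 4 rats (rats 1 to 4) were each given cadmium chloride, a salt of the toxic metal cadmium, at a concentration of 4 µM for 3 h or culture medium alone, so each group holds 4 samples and each rat gives 1 sample to both. RNA was read on Affymetrix RAE230A arrays, 1 per sample. The sources used here do not give strain, sex or age of the rats, and cultured hepatocytes no longer receive the blood supply of the liver.

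In hepatocytes a fatty acid is first joined to coenzyme A, then carried as acylcarnitine into the mitochondrion, and there shortened by rounds of beta-oxidation. Very long chains and dicarboxylic acids are shortened in peroxisomes. PPAR-alpha, the receptor encoded by Ppara, binds fatty acids, pairs with the retinoid X receptor and raises transcription of many of these enzyme genes during fasting.

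None of the 8 genes passed the test for a change after 3 h of cadmium, while 3 probe sets of 2 of them, Acaa2 and Acsl1, differed between rats. Of the 9 probe sets bright enough to test, which read 7 genes, 0 were higher and 0 lower at an adjusted p under 0.05, against 2.1% and 1.43% of the 9519 probe sets tested (3.53% in either direction). With the rat as a block, which compares the cultures within each rat, the count was again 0 in each direction, against 2.86% higher and 2.29% lower of all tested (5.15% together). No member had an unadjusted p under 0.05 in either fit, where 16.5% and 20.4% of all tested probe sets did. Leaving out 1 array, in the fit without the block, gave 1 such member in 2 cases. These were Cpt2 without cadmium replicate 1 and Ehhadh without cadmium replicate 4, each with the control of that rat kept. The log2 change was above 0 for 5 of the 9 and below 0 for 4, with a median of 0.04 against -0.06 over all tested probe sets. Adjusted p lay between 0.473 and 0.993 without the block and between 0.250 and 0.985 with it. Values are MAS5 signals, a linear brightness, and tests used limma on log2(signal + 1) with Benjamini-Hochberg adjustment. A log2 change is cadmium minus control, given with its standard error, and errors of signals are SD with n = 4. Unless given as within rats, a standard error comes from the fit without the block and so includes the spread between rats. In RNA from whole cultures, fewer cells of a type and less RNA per cell cannot be told apart.

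**Figure D1:**
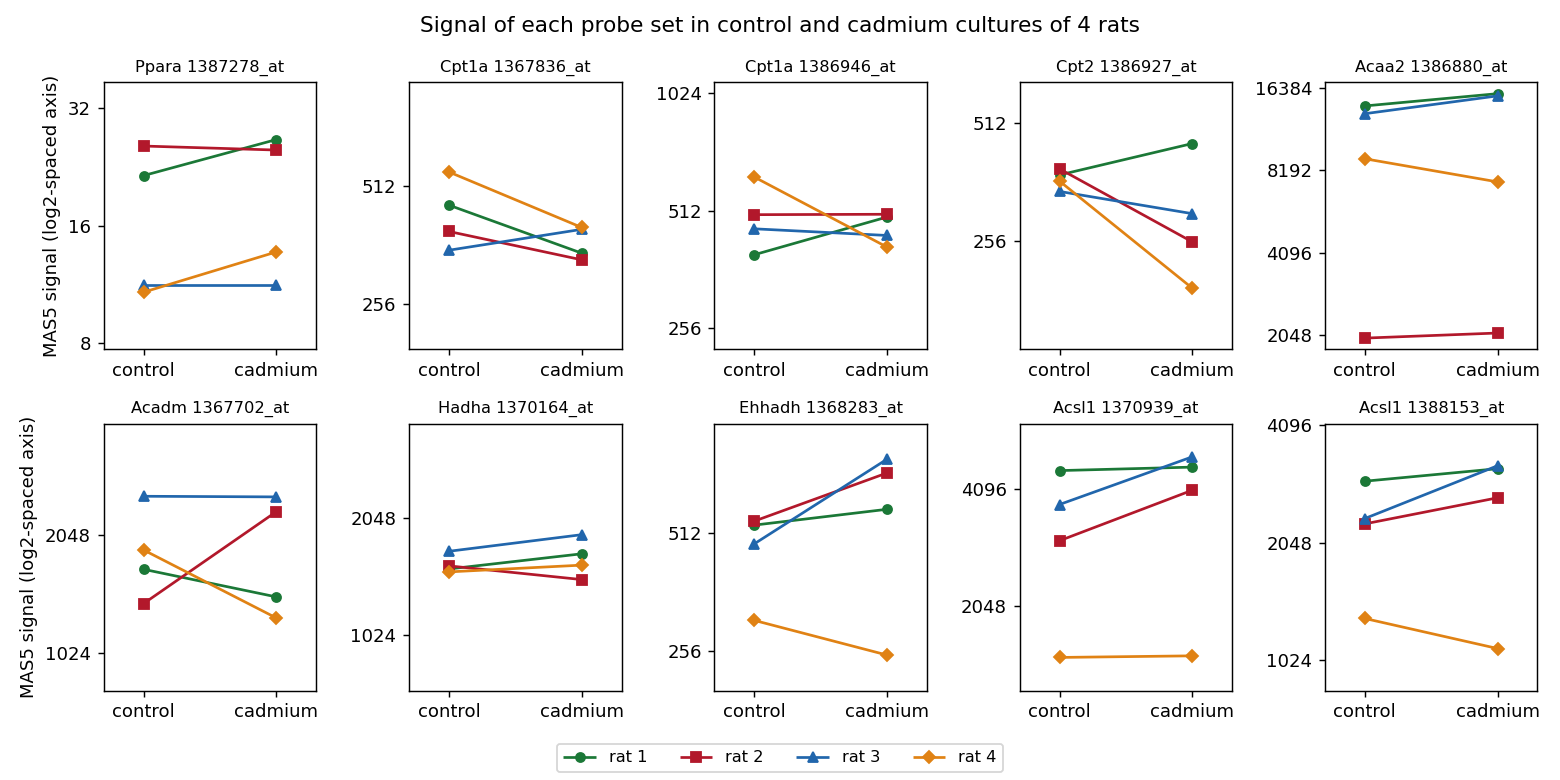
MAS5 signal (log2-spaced axis) of each of the 10 probe sets in the control and the cadmium culture, 1 panel per probe set, with a line joining the 2 cultures of each rat. Acaa2 was lowest in rat 2, and both Acsl1 probe sets and Ehhadh were lowest in rat 4, in control and cadmium cultures alike.

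The receptor gene Ppara was read by 1 dim probe set (1387278_at). Its signals were 21.5, 25.6, 11.3 and 10.8 in the controls of rats 1 to 4 and 26.6, 25, 11.3 and 13.7 after cadmium. The groups overlapped, and rats 1 and 2 gave the higher signals in both groups. Rats 1 and 2 were on 1 chip lot and rats 3 and 4 on the other, so rat and lot cannot be told apart here. The difference between rats did not pass the test used below (adjusted p = 0.607). The probe set lay at the 8.09th percentile of mean log2 signal, under the limit of a signal of 118 below which the dimmest 40% of probe sets were left out, so it was not among the 9 tested. In the fit without that filter its log2 change was 0.14 ± 0.46 (limma adjusted p = 0.947), with a 95% interval from -0.87 to 1.16. Within rats the interval ran from -0.78 to 1.07 (adjusted p = 0.911). At this brightness a difference of up to about that size was not detectable.

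Acsl1 encodes the main long-chain acyl-CoA synthetase of liver, which activates fatty acids for oxidation or storage. Its brighter probe set (1370939_at) read 4554, 3010, 3727 and 1511 in the controls of rats 1 to 4 and 4648, 4056, 4940 and 1525 after cadmium. The cadmium value was the higher one in 4 of 4 rats, the only member probe set with the same direction in all rats, where 29.6% of all tested probe sets moved one way in 4 of 4. The log2 difference was 0.43 and 0.41 in rats 2 and 3, and 0.03 and 0.01 in rats 1 and 4. The group means were 3200 ± 1291 and 3792 ± 1555, a log2 change of 0.22 ± 0.40 (limma adjusted p = 0.851). Within rats the standard error was 0.098, and the 95% interval ran from -0.003 to 0.44, or 0.998- to 1.36-fold (unadjusted p = 0.0529, adjusted p = 0.250). The dimmer probe set (1388153_at) read 2946, 2290, 2364 and 1310 in controls and 3172, 2672, 3229 and 1097 after cadmium. It was higher after cadmium in rats 1 to 3 and lower in rat 4, with a log2 change of 0.13 ± 0.34 (adjusted p = 0.902). Within rats its standard error was 0.11 (adjusted p = 0.576). Both probe sets name the same target transcript, so they are 2 readings of 1 gene, and they gave the same direction in 3 of 4 rats.

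Cpt1a encodes carnitine palmitoyltransferase 1A, which makes acylcarnitine at the outer mitochondrial membrane and is the controlled step of entry into the mitochondrion. Its brighter probe set (1386946_at) read 394, 500, 460 and 624 in the controls of rats 1 to 4 and 493, 501, 442 and 413 after cadmium. The groups overlapped, with rat 1 higher and rat 4 lower after cadmium. The log2 change was -0.082 ± 0.15 (limma adjusted p = 0.851). Within rats the standard error was also 0.15 (adjusted p = 0.805). The other probe set (1367836_at) read 458, 392, 351 and 558 in controls and 345, 332, 397 and 402 after cadmium. It was lower after cadmium in 3 of 4 rats, with a log2 change of -0.24 ± 0.16 (adjusted p = 0.516). Within rats its standard error was 0.14 (adjusted p = 0.384). These 2 probe sets also name the same target transcript, yet they gave the same direction in only 1 of 4 rats, so no direction can be read for Cpt1a.

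Cpt2 encodes the inner-membrane transferase that turns acylcarnitine back into acyl-CoA. Probe set 1386927_at read 377, 391, 342 and 364 in the controls of rats 1 to 4, and 454, 254, 300.2 and 193 after cadmium. The controls lay close together (368.6 ± 20.8), while the cadmium cultures spread widely around a lower mean (300.45 ± 111), below the controls in rats 2, 3 and 4 and above them in rat 1. The log2 change, -0.36 ± 0.22, had an adjusted p of 0.473 (limma). In the same fit, which has no rat block, it was -0.58 without cadmium replicate 1 (adjusted p = 0.126) and -0.17 without cadmium replicate 4 (0.699). Within rats the interval was 0.575- to 1.05-fold (adjusted p = 0.330).

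Acadm encodes the medium-chain acyl-CoA dehydrogenase, which takes the first step of each round for medium chains. Probe set 1367702_at read 1677, 1369, 2580 and 1879 in the controls of rats 1 to 4 and 1424, 2356, 2571 and 1258 after cadmium. Rat 2 was higher after cadmium (log2 difference 0.78), rat 4 lower (-0.58), rat 1 lower by less (-0.24), and rat 3 nearly level. The log2 change was -0.0092 ± 0.25 (limma adjusted p = 0.993), with an interval from -0.57 to 0.55. Within rats the interval ran from -0.43 to 0.42 (adjusted p = 0.985).

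Hadha encodes the alpha subunit of the mitochondrial trifunctional protein, which hydrates and oxidizes long-chain intermediates. Probe set 1370164_at read 1515, 1543, 1682 and 1489 in the controls of rats 1 to 4 and 1657, 1423, 1855 and 1550 after cadmium. The groups overlapped throughout, and the means were 1557 ± 85.9 and 1621 ± 183. The log2 change was 0.053 ± 0.11 (limma adjusted p = 0.864), and the 95% interval, 0.882- to 1.22-fold, was the narrowest of the 9. Within rats the interval was 0.904- to 1.19-fold (adjusted p = 0.781).

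Acaa2 encodes the mitochondrial 3-ketoacyl-CoA thiolase, which releases acetyl-CoA at the end of each round. Probe set 1386880_at read 14103.5, 1995, 13212 and 9038 in the controls of rats 1 to 4 and 15643, 2082, 15352.5 and 7437 after cadmium. Rat 2 stood far below the others in both cultures. The log2 change was 0.037 ± 0.71 (limma adjusted p = 0.990), an interval of 0.346- to 3.04-fold when the rats' spread is left in the error. Within rats the standard error was 0.09 and the interval 0.889- to 1.18-fold (adjusted p = 0.861).

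Ehhadh encodes the peroxisomal bifunctional enzyme, a hydratase and dehydrogenase used for dicarboxylic acids and a classic target of PPAR-alpha in rodents. Probe set 1368283_at read 538, 550, 481 and 306 in the controls of rats 1 to 4 and 590, 731, 793 and 250 after cadmium. It was higher after cadmium in rats 1 to 3, lower in rat 4. The log2 change was 0.24 ± 0.33 (limma adjusted p = 0.798), and the within-rat interval ran from -0.13 to 0.61 (adjusted p = 0.448). In the fit without the block, the log2 change was 0.61 without cadmium replicate 4 (adjusted p = 0.165). It was 0.098 without cadmium replicate 2, 0.059 without cadmium replicate 3 and 0.051 without control replicate 4. The other culture of the same rat was kept each time, so these values are not paired. Differences within rats 1 to 4 were 0.13, 0.41, 0.72 and -0.29.

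**Figure D2:**
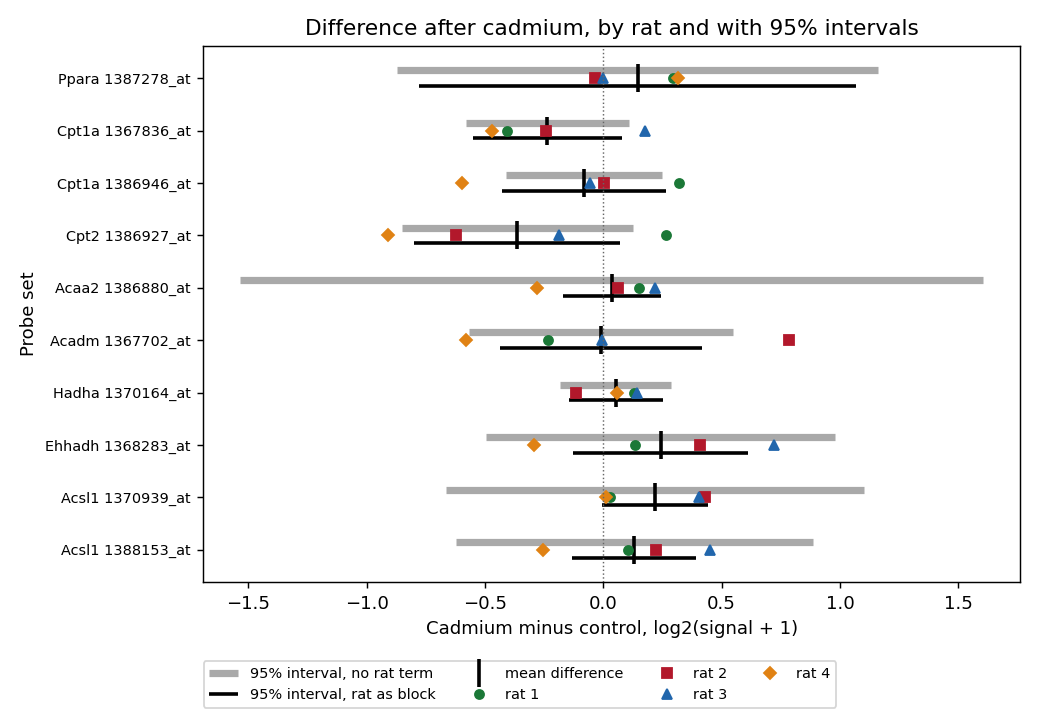
Log2 difference of cadmium minus control, log2(signal + 1), for each rat (coloured points), with the mean difference (black tick) and its 95% interval without a rat term (grey) and with the rat as a block (black). All intervals include 0, and for Acaa2 and both Acsl1 probe sets the blocked interval is much the narrower.

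The rats were compared with a moderated F test that held cadmium as a term. It called 3 of the 9 tested member probe sets, against 1.75% of the 9519. These were Acaa2 (adjusted p = 2.76e-05) and both probe sets of Acsl1 (0.00171 for the brighter, 0.0123 for the dimmer). Ehhadh came close to the threshold (unadjusted p = 0.00181, adjusted p = 0.0726). Each scan day holds the 2 arrays of 1 rat, so rat and scan day cannot be told apart. Rats 1 and 2 shared 1 chip lot and rats 3 and 4 the other, so any lot difference is part of the rat differences. Acaa2 signal, averaged over both cultures of a rat, was 14873, 2038.5, 14282 and 8237 in rats 1 to 4, a span of 7.28-fold. Acaa2 in rat 2 lay 3.57-fold below the lowest other array, the largest such gap for rat 2 among all 9519 probe sets. In the same rat the list of 9 measured hepatocyte markers summed to 99953 and 104253, within the 89208 to 106582 of the other arrays. The sum mainly follows its brightest markers, Alb and Serpina1 (mean signals 39020 and 26223), and says little of the dimmer ones. Hadhb, the partner subunit of Hadha in the trifunctional protein, read 4084.5 and 3686 in rat 2, within the 3685 to 4382 of the other arrays. The part of these values in the rat 2 result was not tested.

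Acsl1 on the brighter probe set averaged 4601, 3533, 4334 and 1518 in rats 1 to 4, and Ehhadh 563.85, 640.85, 637.2 and 277.95. Rat 4 was lowest for both, with spans of 3.03-fold and 2.29-fold, and 2.55-fold on the dimmer Acsl1 probe set. The gap below the lowest other array was 1.97-fold for the brighter Acsl1 probe set, 1.75-fold for the dimmer and 1.57-fold for Ehhadh. Without rat 4, the F test no longer called Acsl1 (adjusted p = 0.142 and 0.274), and without rat 2 it no longer called Acaa2 (0.0583). Leaving out single arrays ended only the call of the dimmer Acsl1 probe set, without control or cadmium replicate 1 or 2 (0.0538 to 0.0579), and added Ehhadh without control replicate 4 (0.00800). In rat 4, 6 measured Kupffer cell and macrophage markers summed to 3203 in the control and 3663 after cadmium, against 1410 to 2793 on the other arrays. Of the 6, 3 had a mean signal of at least 100, and the sum mainly follows the brightest, Cd68 (mean signal 1568). It rose in the order of rats 1 to 4 in both groups. Stellate cell markers summed to 932.6 and 793.5 in rat 4, against 680.2 to 905.8 on the other arrays. Lymphocyte markers, all dim, summed to 159.5 and 137.1, against 102.6 to 131.6. Endothelial markers, also all dim, summed to 124.2 and 158.4, within the 46.1 to 197.3 of the others. The 3 measured cholangiocyte markers, of which Epcam was bright and Krt7 and Krt19 were dim, summed to 1717 and 1103 in rat 4, against 2218.5 to 2704 elsewhere. The 9 hepatocyte markers summed to 102944 in the control of rat 4, the highest control, and to 93609 after cadmium, the lowest of that group. Of the 3'/5' signal ratios, which measure RNA integrity, that of beta-actin was 1.79 in the control of rat 4, against 1.38 to 1.45 in the other controls. After cadmium it was 1.63 in rat 4 and also 1.63 in rat 2. The ratio of Gapdh was 0.988 and 1.07 in rat 4, within the 0.958 to 1.12 of the other arrays. The part of these values in the rat 4 result was not tested.

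**Figure D3:**
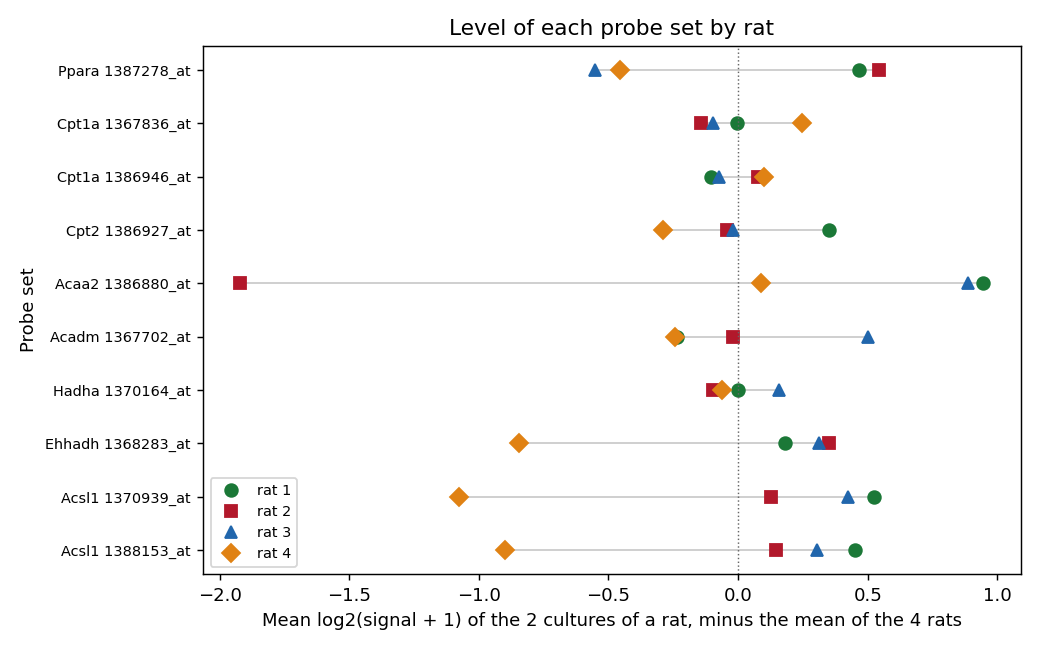
Level of each of the 10 probe sets in each rat, as mean log2(signal + 1) of its 2 cultures minus the mean of the 4 rats, with the rats marked by colour and shape. Rat 2 stands apart for Acaa2, and rat 4 for both Acsl1 probe sets and Ehhadh.

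Cadmium differences were also set side by side within each rat. Of the 9 tested member probe sets, 7 were higher after cadmium in rat 1, 6 in rat 2, 6 in rat 3 and 2 in rat 4. Of all tested probe sets, 57.1% to 57.9% were lower after cadmium in each rat. The median difference of the 9 was 0.13, 0.06, 0.18 and -0.29 in rats 1 to 4, while that of all tested probe sets was between -0.07 and -0.05 in each. In rat 4 the 7 lower ones were both Cpt1a probe sets, Cpt2, Acaa2, Acadm, Ehhadh and the dimmer Acsl1 probe set, and Hadha and the brighter Acsl1 probe set were the 2 higher. Differences of all probe sets also spread most in rat 4 (SD 0.595, against 0.437 to 0.478 in the others). With 1 culture per rat and treatment, a difference within 1 rat has no replicate.

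**Figure D4:**
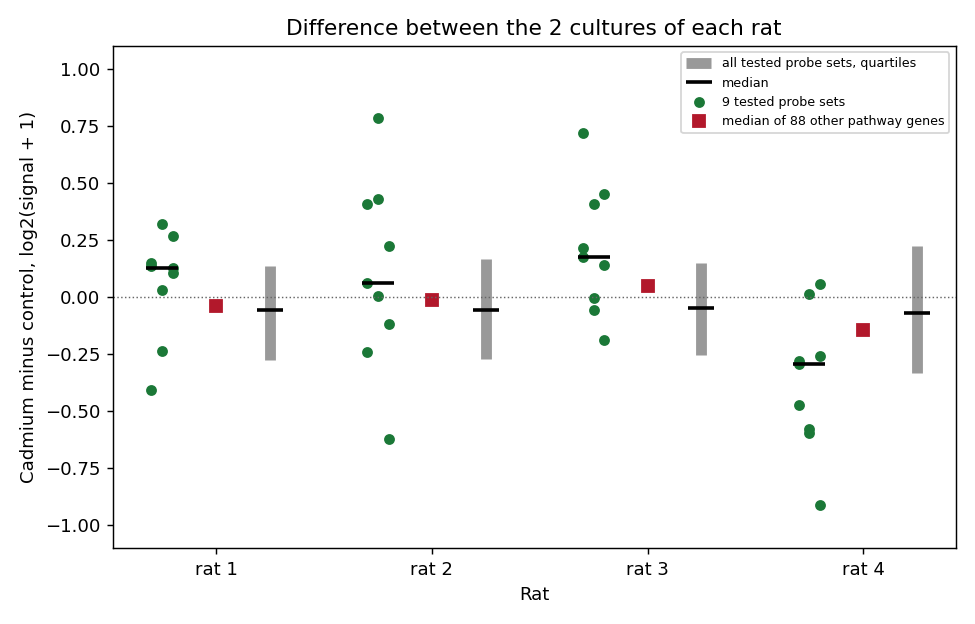
Log2 difference of cadmium minus control within each rat, for the 9 tested probe sets (green points, black line at their median), the median of the 88 other pathway genes (red square) and the quartiles and median of all tested probe sets (grey bar, black line). Medians of the 9 were 0.13, 0.06, 0.18 and -0.29 in rats 1 to 4.

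Other genes of the pathway were read from 8 lists holding 122 genes besides the 8, of which 104 had a probe set of their own and 88 passed the brightness filter. After cadmium 1 of the 88 rose and 0 fell, against 2.04% and 1.31% (3.35% together) of 7099 genes read on their brightest probe set, with a median log2 change of -0.03. With the rat as a block the count was again 1 and 0, against 4.94% of genes in either direction. The 1 called gene was Fgf21, the fasting hormone made by liver under PPAR-alpha and stress signals. Its signals were 228, 153, 61.4 and 114 in the controls of rats 1 to 4 and 530.5, 402, 253.5 and 556.5 after cadmium. The groups did not overlap, as in 11.5% of tested probe sets. Fgf21 rose by a log2 change of 1.73 ± 0.37, in 4 of 4 rats (adjusted p = 0.0312, 0.00184 with the block). The call in the fit without the block was lost without the filter (0.0566) and within each chip lot (0.257 and 0.0999). It was also lost without control replicates 2, 3 or 4 or cadmium replicates 1, 2 or 4 (up to 0.0870).

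By role, 0 genes were called in the other 7 lists in either fit. Adjusted p from limma without the rat block is given for the 2 brightest of each. The median log2 change of a list ran from -0.11 in the carnitine shuttle to 0.11 among the partners of PPAR-alpha. Of 11 tested genes of uptake and activation, the bile acid and fatty acid CoA ligase Slc27a5 had a log2 change of 0.19 ± 0.18 (0.692) and the acyl-CoA binding protein Dbi -0.12 ± 0.11 (0.672). Of 7 tested in the carnitine shuttle, the peroxisomal carnitine octanoyltransferase Crot gave -0.11 ± 0.21 (0.852) and the malonyl-CoA decarboxylase Mlycd -0.13 ± 0.13 (0.694). Of 17 in mitochondrial beta-oxidation, the long-chain dehydrogenase Acadl gave 0.03 ± 0.09 (0.926) and Hadhb -0.07 ± 0.09 (0.761).

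Of 3 tested genes of ketone body synthesis and export, the thiolase Acat1 gave 0.20 ± 0.17 (adjusted p = 0.642). The monocarboxylate carrier Slc16a1 was 1090, 1067, 1018 and 1125 in controls and 896, 882, 869 and 799 after cadmium, lower in 4 of 4 rats with no overlap, and its log2 change of -0.32 ± 0.09 did not pass (0.109, and 0.0979 with the block). Of 13 in peroxisomal oxidation, catalase (Cat) gave 0.06 ± 0.11 (0.854) and the thiolase and lipid carrier Scp2 0.00 ± 0.19 (0.997). Of 6 omega-oxidation genes, which start oxidation at the far end of the chain, Cyp4f1 gave -0.14 ± 0.16 (0.740) and Cyp4f6 -0.07 ± 0.19 (0.906). Of 12 partners and coregulators of PPAR-alpha, the corepressor Ncor1 gave 0.12 ± 0.10 (0.650) and the retinoid X receptor gene Rxrg 0.15 ± 0.15 (0.702). A dimmer Ncor1 probe set went the other way, with -0.24 ± 0.16 (0.514), lower in 4 of 4 rats.

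**Figure D5:**
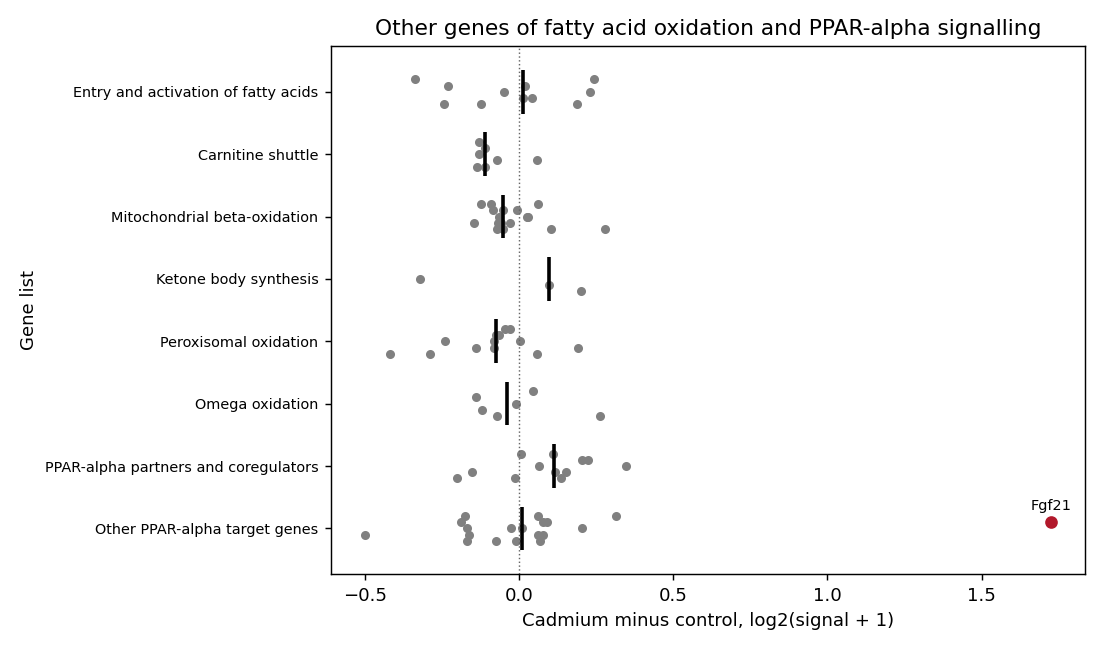
Log2 change of each tested pathway gene, 1 point per gene on its brightest probe set, grouped by list with a black line at the list median. Fgf21, in the list of other targets, is the only one past the adjusted threshold of 0.05.

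Between rats, 4 of the 88 pathway genes differed, against 1.89% of all genes. They were the desaturase Scd (adjusted p = 0.000213), the lipase inhibitor G0s2 (0.0281), Crot (0.0443) and the fatty acid omega-hydroxylase Cyp4a1 (0.0450). Scd signals were 3303, 887, 1383 and 738 in the controls of rats 1 to 4 and 3075, 777, 1511.5 and 673 after cadmium, highest in rat 1 in both groups. Crot was 1498, 1224, 1349 and 2147.5 in controls and 1233, 1223, 1270 and 2036 after cadmium, and so was highest in rat 4, where Acsl1 and Ehhadh were lowest.

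For Cpt2 and Ehhadh, whose log2 changes over all 8 arrays were the largest in size among the members' brightest tested probe sets, the genes most alike over the 8 arrays are given as a description, chosen from 7098 genes. The signal of Cpt2 ran closest to Rpe (Pearson r = 0.97), C5h1orf174 (0.96) and Ecsit (0.94), and that of Ehhadh closest to Cyp2c13 (0.98), Gstt3 (0.97) and Lasp1 (0.96). All 8 points share rats and scan days.

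Promoter windows (250 bases before to 50 after the start, RefSeq, GRCr8) were found for 7 of the 8 genes, all but Acaa2. The PPAR response repeat, AGGTCA written 2 times in a row with 1 base of any kind between, searched on both strands, was in 0 of 7 windows and in 0.0538% of 33469 windows of all genes, and its half-site AGGTCA was in 0 of 7 and in 16.2%. A full repeat this rare would be absent from nearly any 7 windows, so its absence says little about these genes. Repeats with other letters or outside the windows were not searched. The CCAAT box was in the windows of Acsl1, Ehhadh and Hadha and in 37.5% of all. The windows of Acsl1 (chr16:52532343-52532642, minus strand) and Ehhadh (chr11:92746159-92746458, plus strand) are printed because both genes were lowest in rat 4. They are written 5′ to 3′, and capitals mark the CCAAT box, here on the opposite strand as ATTGG.
Acsl1: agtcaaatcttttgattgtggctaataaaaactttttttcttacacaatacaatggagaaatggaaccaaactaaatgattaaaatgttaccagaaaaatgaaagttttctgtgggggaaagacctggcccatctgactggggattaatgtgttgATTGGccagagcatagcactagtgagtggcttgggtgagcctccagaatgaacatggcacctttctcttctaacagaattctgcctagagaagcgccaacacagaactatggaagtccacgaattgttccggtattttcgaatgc
Ehhadh: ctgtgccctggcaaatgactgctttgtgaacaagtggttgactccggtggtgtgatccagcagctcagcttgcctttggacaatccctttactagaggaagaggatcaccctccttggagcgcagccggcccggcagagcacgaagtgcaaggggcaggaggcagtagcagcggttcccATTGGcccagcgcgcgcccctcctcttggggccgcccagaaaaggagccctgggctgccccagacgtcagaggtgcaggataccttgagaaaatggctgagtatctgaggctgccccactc

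Medians of the arrays were 192.2 to 197.25 in controls and 180 to 186.4 after cadmium (exact two-sided permutation p = 0.0286, the smallest that 70 assignments allow). Trimmed means were 500.1 to 500.2 on all arrays, so the medians differed although the arrays shared 1 scale. Of 10 hepatocyte markers 9 were measured, all with a mean signal of at least 100. They summed to 89208 to 102944 in controls and to 93609 to 106582 after cadmium (exact two-sided permutation p = 0.486). All controls ran on 1 fluidics module and all cadmium arrays on the other, so module and treatment cannot be told apart. Precision is limited by the number of arrays.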

How the data were processed

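The deposited table gives each probe set on each array 1 linear intensity, called its signal, made by the authors with MAS5, per the submitters' processing notes; the sources used here give neither its version nor its scaling target. Other deposited files, 1 per array, hold run settings and were used only for batches: 2 chip lots (rats 1 and 2, rats 3 and 4), scan days and fluidics modules. Of 15923 probe sets, 57 controls were left out. Symbols came from the platform annotation, updated by gene number: 12783 of 15866 probe sets had 1, 312 several and 2771 none, and those with several were not named. The array files give no probe coordinates.

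Signals were used as log2(signal + 1). The dimmest 40% of probe sets, by their mean on the 8 arrays, were left out. Cadmium was compared with control by limma 3.58.1 (R 4.3.3), two-sided, with a variance trend and Benjamini-Hochberg adjustment over 9519 probe sets, without a rat term because no source states a paired test. The pairing comes from the labels, which give both samples of a number to 1 rat. Deviations from the group means, as a check, correlated at 0.350, 0.251, 0.475 and 0.196 within rats 1 to 4, and at most -0.008 between rats. Taking deviations from group means itself pushes the correlations between rats below 0. Both arrays of a rat also share a scan day, so the check cannot separate rat from scan day. The pseudocount of 1 understates changes of dim genes. Fits were tested on simulated data with independent noise on each array. The simulated cadmium test held no pairing of cultures by rat, so it does not cover that feature of the real arrays.

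The members and lists were chosen with earlier results of these data known. Every member is named, and from each pathway list each gene past the threshold, otherwise the 2 brightest; the 3 most correlated genes are given for the 2 members of largest change. Genes past the threshold between rats, Hadhb in rat 2 and the genes of the closing section were chosen after their values were seen. Alternatives were the rat as a block, median centring, quantile normalization, a filter of 60% or none, a pseudocount of 32, fits within a chip lot or with the lot as a block, a constant prior variance in place of the trend, averaged probe sets per pathway gene, and each array left out. For the rat differences, each array and each rat left out were chosen after seeing the data.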

Additional observations from a re-analysis of the deposited data

Results flagged for a closer look

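Among the 4 cadmium cultures, replicate 4 (rat 4) read 1525.3 for the brighter probe set of Acsl1 (1370939_at), far from the other 3, which read 4056 to 4940. The control of the same rat, at 1511, was likewise the lowest of its group. This was 1 of 26 groups of 4 values checked, and chance alone gives about 1 in 20.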

How the results depend on the processing

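Counts of members called after cadmium were 0 higher and 0 lower under every alternative run. With each rat as a replicate block the fit changed no member's call and gave 218 lower probe sets over the whole array in place of 136. Lower probe sets were 87 with quantile normalization and 84 with median centring, and higher ones made up 59.5%, 70.6% and 73.2% of calls in the fit as reported, after quantile normalization and after centring. Within chip lot 1 there were 40 higher and 7 lower, within lot 2 there were 75 and 19, with fewer arrays in each. Leaving out 1 array gave 122 to 188 higher and 49 to 125 lower. In fits without the block, pathway genes higher were 0 without the filter and with the 60% filter, which leaves out Fgf21. They were also 0 within chip lots 1 and 2, and 0 to 1 without single arrays. Rat differences were called for 1 member probe set without rat 4. Directions of small changes turned: Acaa2 gave -0.0011 with quantile normalization and -0.032 within lot 1, Acadm 0.046 with centring and 0.27 within lot 2, and Cpt1a 1386946_at 0.16 within lot 2. Without single arrays the log2 change ran from -0.036 to 0.36 for Ppara, -0.18 to 0.036 for Cpt1a 1386946_at, -0.34 to -0.11 for Cpt1a 1367836_at, -0.58 to -0.17 for Cpt2, 0.051 to 0.61 for Ehhadh, -0.61 to 0.67 for Acaa2, -0.18 to 0.17 for Acadm, -0.014 to 0.11 for Hadha, -0.10 to 0.61 for Acsl1 1370939_at and -0.10 to 0.49 for Acsl1 1388153_at. The fits without single arrays had no rat term, so the rat concerned kept its other culture in 1 group only. The ends of the range came without control or cadmium replicate 2 for Acaa2. For both Acsl1 probe sets they came without control or cadmium replicate 4. Within rats, the Acaa2 difference lay between -0.28 and 0.22. The cause of the turned directions was not tested. Ppara was read only by a dim probe set.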

Other observations

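Genes other than the members shared the low values of single rats. Besides Acaa2, Ephx2, the soluble epoxide hydrolase, was the only probe set at least 2-fold below every other array in both cultures of rat 2 (3.34-fold). In rat 4 the 5 such probe sets were Mx2 (3.04-fold), the galectin gene Lgals3 (2.66-fold) and the cytochrome P450 genes Cyp2c13 (2.33-fold), Cyp2c11 (2.31-fold) and Cyp2d3 (2.27-fold). Abcd3, a peroxisomal fatty acid transporter, was lower after cadmium in 4 of 4 rats (log2 change -0.42 ± 0.18, limma adjusted p = 0.269, 0.0658 with the block). A dimmer probe set of the monoglyceride lipase gene Mgll passed only with the block (log2 change -0.91, adjusted p = 0.0356), while its brightest gave -0.50 ± 0.18 (adjusted p = 0.205).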
